A study of Homo sapiens with 7 samples.

Results

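The regions described here are m6A peaks at the 5' ends of mRNAs in HEK-293T cells, an established human embryonic kidney line. A peak was taken when its spliced centre lay in the first 300 nt of the hg38 RefSeq span of a protein-coding gene, on the gene's strand, for genes whose span was 3000 nt or more. Of 59659 deposited peaks, 49028 lay in such genes, and 4116 (6.90% of all peaks) met the rule. These 4116 peaks fell in 2573 genes. The rule used position and strand and no peak score. For 688 of the 4116 peaks, the gene's strand was itself taken from the peaks.

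N6-methyladenosine (m6A) is the most common internal modification of mRNA and is found mainly near stop codons, in 3' UTRs and in long exons. The 5' end of an mRNA carries a second methylated adenosine. Where the first transcribed nucleotide is an adenosine, it can be methylated next to the cap to give m6Am, by the enzyme PCIF1, and FTO can remove that methyl group. Antibodies raised against m6A also bind m6Am, so a peak at a transcript start can hold either base. Which of them lay under the peaks described here was not tested.

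The series sets an antibody method against a chemical method for mapping m6A. In MeRIP, fragmented RNA was captured with an anti-m6A antibody. In m6A-ORL, fragments were treated with NO/O2, then TDO, then the probe BA, pulled down on streptavidin beads and released with DTT. Each method has 2 captured libraries with a peak list, and 3 input samples were not analysed here. The molecule is labelled total RNA for m6A-ORL replicate 1 and polyA RNA for m6A-ORL replicate 2 and both MeRIP libraries, so RNA type and replicate cannot be told apart within m6A-ORL. All samples are HEK-293T under 1 growth protocol, and no label says that replicates were separate cultures, so each p-value measures library-to-library spread, which may be technical.

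In the order MeRIP replicates 1 and 2, then m6A-ORL replicates 1 and 2, the lists held 20760, 20216, 11022 and 7661 peaks, and 17005, 16475, 8876 and 6672 of these lay in the coding genes tested. How many reads lie behind a peak is unknown, and precision is limited by peak numbers. Of 9 markers of other cell types, 6 had a span long enough to be tested, and none of these had a peak in any list.

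Annotated starts of some of the genes that had a 5' end peak in all 4 lists are shown as examples because the base at the cap decides whether m6Am can form there. The annotated first base may not be the base at the cap. Each line gives 10 bases before and 20 bases from the start of the gene on GRCh38.p14, taken from RefSeq promoter sequences, and the capital marks the annotated first base.
YBX1: ctgtcccgccAttctcgctagttcgatcgg (chr1:42682408-42682437, plus strand)
YBX3: tttttggggcAgtaagatcgagcgaggagc (chr12:10723304-10723333, minus strand)
PARP1: gccaggcatcAgcaatctatcagggaacgg (chr1:226408074-226408103, minus strand)
HNRNPM: ccgttcgctcAcacaaagcccagacgcgga (chr19:8444965-8444994, plus strand)
HNRNPAB: cggcattgtcAggcggcggcaccgcgcggg (chr5:178204523-178204552, plus strand)
EIF3J: ccgccgtgctAactcctcgctagctctccc (chr15:44537137-44537166, plus strand)
ENO1: cggcgcggacAgtatctgtgggtacccgga (chr1:8878667-8878696, minus strand)
FKBP3: gggctggctcAgtaaagcggaggcagcggg (chr14:45134462-45134491, minus strand)
HMGN2: ggcgggaggtGaaatccggttctaaccggt (chr1:26472430-26472459, plus strand)
PPP2R1B: ggcgggaggcGgtgaccagcagcaggagga (chr11:111766370-111766399, minus strand)
These starts are a selection and not a tally: among all 34 such genes with a start sequence, 29 start with A and 5 with G, as HMGN2 and PPP2R1B do. FABP5, GAL, YARS1 and GTF2I belong to the same group and are named only. Among the genes printed above, the peak began at the annotated start in all 4 lists for YBX1, YBX3, PARP1, HNRNPAB and HMGN2. It began before that start in all 4 lists for HNRNPM (-59 nt in each), EIF3J, ENO1, FKBP3 and PPP2R1B. The next starts are examples from the genes with a 5' end peak in both MeRIP lists and no m6A-ORL peak anywhere in the gene, of which 75 of 144 start with A.
ABHD17A: tggtgagaacGaggctcacttccgtccgtg (chr19:1885477-1885506, minus strand)
TFPT: caacaactttAttagcacctggcactaggc (chr19:54115638-54115667, minus strand)
SEC63: gaactatctcCtctcgcgagagctggcgac (chr6:107958189-107958218, minus strand)
The last set had a 5' end peak in both m6A-ORL lists and no MeRIP peak anywhere in the gene, and the 8 best-ranked are printed. Among all 56 such genes with a start sequence, 30 (53.6%) start with A and 9 (16.1%) with C.
RACK1: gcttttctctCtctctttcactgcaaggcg (chr5:181243887-181243916, minus strand)
LDHA: ccagctcagaGtgctgcagccgctgccgcc (chr11:18394553-18394582, plus strand)
PTGES3: gccgcccggcCtcaccacccctcgtttgca (chr12:56688265-56688294, minus strand)
BTF3: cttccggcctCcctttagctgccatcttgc (chr5:73498432-73498461, plus strand)
OAZ1: gcctgggcgcAgcatctataaaggcgggcg (chr19:2269476-2269505, plus strand)
JPT1: gacaggcggcAgcggcggctcctgcagcgg (chr17:75154493-75154522, minus strand)
DDX39B: aagtgaaggcAgatttccctccttcgtcgc (chr6:31541984-31542013, minus strand)
EIF4G2: acgccttagcGccagcagtgagtcggagct (chr11:10808907-10808936, minus strand)

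Genes with a peak at the 5' end started with A more often than genes whose peaks lay elsewhere, in each of the 4 libraries. The annotated first base was A for 479 of 908 genes with a 5' end peak in MeRIP replicate 1 (52.8%) and for 1991 of 4472 genes with peaks elsewhere only (44.5%). The shares were 53.5% and 44.5% in MeRIP replicate 2, 54.9% and 44.3% in m6A-ORL replicate 1, and 45.5% and 44.6% in m6A-ORL replicate 2. For comparison, 45.9%, 46.0%, 46.5% and 44.8% of all genes with a peak in the 4 libraries started with A, and 49.9% of all 12412 coding genes with a start sequence did. The difference averaged 7.20 percentage points and was positive in 4 of 4 libraries (two-sided exact sign-flip permutation, p = 0.13, the smallest that 4 libraries allow). It was 8.23 and 9.03 points in the MeRIP libraries, 10.6 points in m6A-ORL replicate 1 and 0.882 points in m6A-ORL replicate 2, where the 95% interval of the genes with a 5' end peak (41.3 to 49.7%) held the value of the other genes. That interval lay below the 49.9% of all coding genes. The interval of MeRIP replicate 1 (49.4 to 56.0%) held 49.9%. Those of MeRIP replicate 2 (50.1 to 56.9%) and m6A-ORL replicate 1 (51.4 to 58.4%) lay above it. Genes with peaks elsewhere only were below 49.9% in every library. Most genes with a 5' end peak in 1 MeRIP list had one in the other, so the MeRIP values are linked.

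The share of A starts was highest among genes with a 5' end peak in all 4 lists. Of the 34 such genes with a start sequence, 29 started with A (85.3%, exact 95% interval 68.9 to 95%) and 5 with G, and in 22 (64.7%) the A followed a C. Among 1347 genes that had peaks in all 4 lists but not at the 5' end in all of them, 44.4% started with A. Genes with a 5' end peak in both MeRIP lists had 53.5% A starts (n = 654), and those with one in both m6A-ORL lists had 59.2% (n = 142, interval 50.6 to 67.3%). The value for all lists moved to 55.8% when m6A-ORL replicate 1 was left out, to 65.3% without m6A-ORL replicate 2, and to 79.5% and 80.0% without MeRIP replicates 1 and 2. These are shares of genes in 4 libraries and carry no test. The first base was read from the annotation, and transcription starts were not measured here.

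**Figure D1:**
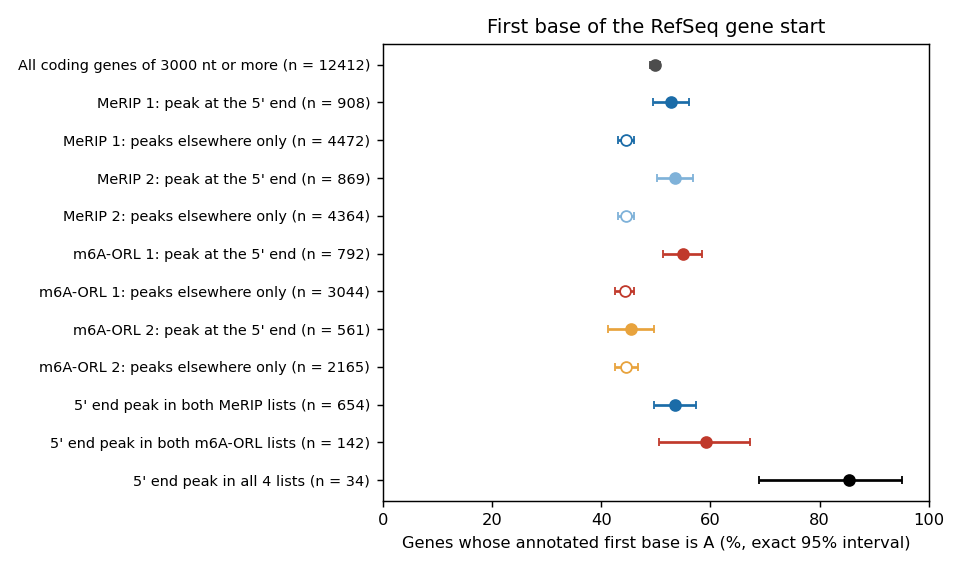
Share of genes whose annotated first base is A (%), with exact 95% binomial intervals over genes, for genes with a peak at the 5' end (filled), genes with peaks elsewhere only (open), all coding genes, and genes with a 5' end peak in several lists. The 34 genes with a 5' end peak in all 4 lists stand at 85.3%, against 49.9% of all coding genes, and the m6A-ORL replicate 2 pair lies at 45.5% and 44.6%.

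In a split at 100 nt that was not planned, the distance of the peak from the start went with the first base in m6A-ORL replicate 1 only. Genes with a centre below 100 nt in that library had 57.9% A starts (364 of 629), and genes with centres at 100 nt or more only had 43.6% (71 of 163), and the 95% intervals did not overlap. The same shares were 43.7% and 46.4% in m6A-ORL replicate 2, 53.2% and 52.3% in MeRIP replicate 1, and 55.6% and 51.8% in MeRIP replicate 2, with overlapping intervals in each. Genes with a 5' end peak in m6A-ORL replicate 1 alone had 53.8% A starts (n = 537), while those with one in m6A-ORL replicate 2 alone had 36.6% (n = 276) and 48.2% G starts. The 2 chemical libraries therefore had unlike start bases among the genes with a 5' end peak in that list alone. Such genes could have peaks elsewhere in any list.

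Internal m6A is often found in a short sequence in which GGAC is followed by A, C or T. The letters GGACA or GGACC or GGACT were present in the first 50 bases of 14.3% and 14% of genes with a 5' end peak in the MeRIP lists and of 12.8% and 10.5% in the m6A-ORL lists, against 14.2% of all 12412 genes. Their reverse complements, which the transcript does not carry as these letters, were present in 12.2%, 14.4%, 14.5% and 14.1%, against 14.7% of all genes. The share was near that of all genes in MeRIP and below it in m6A-ORL. It was below that of the reverse complements in every library but MeRIP replicate 1, and also over all genes. Genes with peaks elsewhere only had the letters in 13.1%, 13.0%, 12.2% and 14.6%. Genes with a 5' end peak were below these only in m6A-ORL replicate 2. The windows of YBX1, FASTK and PCIF1 that hold the letters are shown because all 3 genes are described below, and the capitals mark the match.
YBX1: tagcgggagcggagagcGGACCccagagag (chr1:42682438-42682467, plus strand)
FASTK: tgggaagatggcGGACTcggtggctagccg (chr7:151080767-151080796, minus strand)
PCIF1: agtcccggcccgGGACAcaagatggcggca (chr20:45934687-45934716, plus strand)
The capitals start at base 38 of YBX1, base 26 of FASTK and base 17 of PCIF1, counted from the annotated start. A start of C followed by 4 bases that were each C or T, as in the terminal oligopyrimidine tract of ribosomal protein mRNAs, was present in 4.70% of all genes. It was present in 3.96% and 4.49% of genes with a 5' end peak in the MeRIP lists, and in 6.69% and 7.31% of those in the m6A-ORL lists. Genes with peaks elsewhere only stood at 4.99%, 5.02%, 5.35% and 6.70% in the same libraries, so the m6A-ORL lists were above MeRIP there too. The shares of genes with a 5' end peak lay 0.92 points above that of all genes on average. RACK1, whose start is printed above, is one of the genes that carry it. A match says only that these letters are in the window.

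Peaks at 5' ends made up a larger share of the m6A-ORL lists than of the MeRIP lists. The share of tested peaks was 7.17% (1220 peaks, exact 95% interval 6.79 to 7.57%) and 7.13% (1174, 6.74 to 7.53%) in MeRIP replicates 1 and 2, and 11.4% (1009, 10.7 to 12%) and 10.7% (713, 9.95 to 11.5%) in m6A-ORL replicates 1 and 2. The method means were 7.15 ± 0.0342% and 11 ± 0.482% (SD, n = 2 each). The m6A-ORL mean was 3.88 percentage points higher and the groups did not overlap (two-sided exact permutation p = 0.33, the smallest that 3 splits allow). Among the 1831 genes with a peak in all 4 lists the shares were 7.86%, 7.84%, 8.12% and 8.34%, a difference of 0.38 points. The difference was 7.04 points when each list was limited to its 7661 best-scored peaks and 7.11 points in the better-scored 50% of each list.

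Centres were packed closest to the start in m6A-ORL replicate 1. Its median distance was 60 nt, against 106 and 105 nt in MeRIP and 126 nt in m6A-ORL replicate 2. Of its 1009 peaks, 796 (78.9%) had the centre within 100 nt of the start, compared with 539 (44.2%), 524 (44.6%) and 247 (34.6%) in MeRIP replicates 1 and 2 and m6A-ORL replicate 2. The 2 m6A-ORL libraries thus lay on opposite sides of the MeRIP libraries, and the spread between them was wider than the difference between the method means (93.0 ± 46.7 nt against 105.5 ± 0.707 nt, SD, n = 2 each; two-sided exact permutation p = 1). In the first 50 nt, m6A-ORL replicate 1 had 390 centres and m6A-ORL replicate 2 had 75, while MeRIP had 187 and 182. The 5' edge of the peak lay within 10 nt of the annotated start for 331, 355, 318 and 142 peaks in the same order of libraries (27.1%, 30.2%, 31.5% and 19.9%). Upstream of the gene, in the 300 nt before the start and outside any other coding span, 113, 127, 75 and 24 centres lay.

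**Figure D2:**
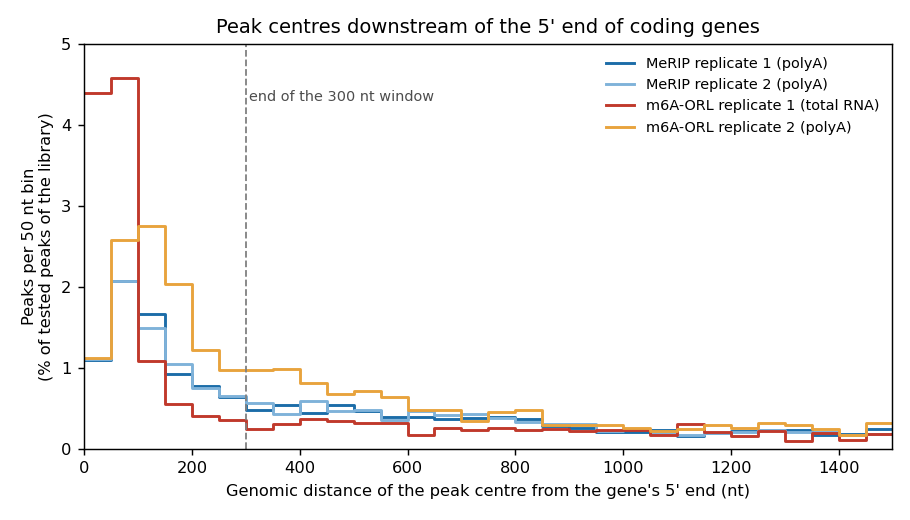
Peak centres in 50 nt bins from the gene's annotated 5' end (x axis, genomic distance in nt) as a share of the library's tested peaks (y axis, %), with a dashed line at 300 nt. The m6A-ORL replicate 1 line is high over the first 100 nt and lies below the others between 100 and 300 nt, while the other 3 libraries peak between 50 and 150 nt.

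The window has no natural border at 300 nt. The last 50 nt inside it held 108, 108, 32 and 65 centres, and the next 50 nt outside held 81, 94, 22 and 65.

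Within each library, peaks at 5' ends were compared with the other peaks of the tested genes. The other method overlapped fewer of them, where 1 shared nt on the same strand sufficed. In MeRIP, 30.8% and 28.4% of 5' end peaks were overlapped by an m6A-ORL peak, against 36.4% and 36.1% of other peaks and 36.0% and 35.6% of all tested peaks. In m6A-ORL replicate 1, 25.2% of 5' end peaks were overlapped by a MeRIP peak, against 64.2% of other peaks and 59.8% of all. In m6A-ORL replicate 2 the shares were 39.8%, 48.5% and 47.6%. The difference averaged -15.2 percentage points and was negative in 4 of 4 libraries (two-sided exact sign-flip permutation, p = 0.13, the smallest possible). Its size and sign rested on m6A-ORL replicate 1, whose own difference was -39.1 points. Without that library, when MeRIP peaks were set against m6A-ORL replicate 2 alone, the mean was 0.475 points. The MeRIP and m6A-ORL libraries count the same overlaps from either side, so this test treats linked values as separate.

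The same-method replicate overlapped 78.2% and 79.6% of 5' end peaks in MeRIP and 20.6% and 26.8% in m6A-ORL. For the other peaks these shares were 84.4%, 87.4%, 13.4% and 17.7%, and for all tested peaks 83.9%, 86.9%, 14.2% and 18.7%. The 5' end peaks were thus shared less often than other peaks between the MeRIP replicates, and more often between the m6A-ORL replicates. Since the signs were opposite, the mean difference was 0.561 points (two-sided exact sign-flip permutation, p = 0.875). The replicates of a method count largely the same overlaps from either side, so this test treats linked values as separate.

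Peaks at 5' ends crossed a splice junction more often than other peaks, meaning that they were listed in 2 or more blocks. This held for 26.3%, 26.7%, 28.3% and 29.9% of 5' end peaks, against 16.3%, 15.6%, 8.05% and 28.9% of other peaks and 17.0%, 16.4%, 10.4% and 29.0% of all tested peaks. The mean difference was 10.6 points, positive in 4 of 4 libraries (two-sided exact sign-flip permutation, p = 0.13, the smallest possible), and it was 1.01 points in m6A-ORL replicate 2.

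The deposited score of each peak, the authors' own value, was used as a rank within its list, where a percentile of 0 is the smallest score. The 5' end peaks ranked below the other peaks in MeRIP, with median percentiles of 60.5 against 47.2 and 59.5 against 47.2. In m6A-ORL they ranked above them, at 48.6 against 52.3 and 43.2 against 50.9. Over all libraries the mean difference was 3.52 percentiles (two-sided exact sign-flip permutation, p = 0.5). Leaving out 1 library at a time moved it to 0.277 and 0.603 without MeRIP replicates 1 and 2, and to 5.93 and 7.28 without m6A-ORL replicates 1 and 2. Median widths of 5' end and other peaks were 180 and 240 nt, 180 and 239 nt, 121 and 150 nt, and 151 and 121 nt (mean difference -29.5 nt, two-sided exact sign-flip permutation p = 0.375), and the mean was -19.3 nt without MeRIP replicate 1 and -49.3 nt without m6A-ORL replicate 2. Only in m6A-ORL replicate 2 were the 5' end peaks the wider ones, and 88.2% of all peaks had a width within 1 nt of a multiple of 30 nt.

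**Figure D3:**
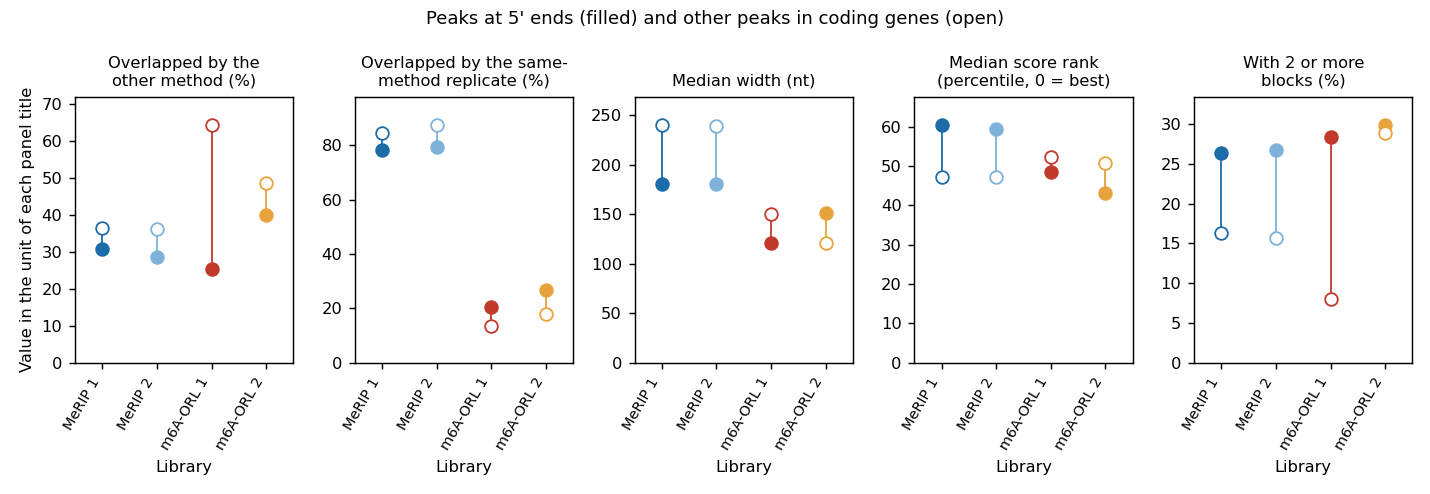
Peaks at 5' ends (filled) and other peaks in the tested genes (open), 1 pair per library, in 5 panels with their own units: share overlapped by the other method (%), share overlapped by the same-method replicate (%), median width (nt), median score rank (percentile, 0 = best) and share with 2 or more blocks (%). The widest gap in the panel of overlap by the other method is that of m6A-ORL replicate 1, at 25.2% against 64.2%.

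Genes with a 5' end peak often had no other peak in m6A-ORL. Of the genes with any peak, 1169 of 7325 (16%), 1127 of 7176 (15.7%), 974 of 5157 (18.9%) and 691 of 3662 (18.9%) had a peak at the 5' end. In 298 and 282 of them in MeRIP (25.5% and 25.0%), every peak of the gene in that list lay at the 5' end. In m6A-ORL this held for 550 and 385 (56.5% and 55.7%). The means were 25.3 ± 0.332% and 56.1 ± 0.532% (SD, n = 2 each), 30.8 points apart without overlap (two-sided exact permutation p = 0.33, the smallest possible). The m6A-ORL lists also held fewer peaks per gene, with 8876 tested peaks in 5157 genes and 6672 in 3662. MeRIP had 17005 in 7325 and 16475 in 7176. How much of the gap goes with peaks per gene was not tested.

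Most genes with a 5' end peak were not shared, either between the methods or between the m6A-ORL replicates. Low sharing between the m6A-ORL lists was not particular to 5' ends. The other m6A-ORL list overlapped 14.2% and 18.7% of all tested peaks, against 20.6% and 26.8% of 5' end peaks. Of the 9337 genes with a peak anywhere in any list, 1831 had one in all 4 lists. A 5' end peak was present in both MeRIP lists for 833 genes (of 1169 and 1127 in the single lists) and in both m6A-ORL lists for 183 genes (of 974 and 691). Both conditions held for 43 genes, which is 5.16% of the MeRIP genes and 23.5% of the m6A-ORL genes. In either list of a method, 1463 and 1482 genes had one, and 372 genes were in both sets (25.4% and 25.1%). Of the 833 MeRIP genes, 405 had an m6A-ORL peak only elsewhere in the gene and 187 had none. Of the 183 m6A-ORL genes, 50 had a MeRIP peak only elsewhere and 66 had none. Overlapping 5' end peaks were merged into 2615 places, of which 599 were in both MeRIP lists alone, 106 in both m6A-ORL lists alone, 678 in m6A-ORL replicate 1 alone, 361 in m6A-ORL replicate 2 alone and 42 in all lists.

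YBX1, a cold shock domain protein that binds mRNA and takes part in translational control, had the best mean rank of the 43 genes. Its 5' end peak began at the annotated start in all 4 lists, with the centre at 104, 104, 75 and 179 nt and a width of 209, 209, 150 and 358 nt. The score percentiles were 6.74, 10.0, 5.11 and 0.411, and YBX1 had no other peak in the first 3 lists and 1 more in m6A-ORL replicate 2. Its relative YBX3 followed, with a peak that also began at the start, centres at 179, 194, 75 and 224 nt and percentiles of 16.3, 18.6, 3.5 and 0.633. For both genes the m6A-ORL replicate 1 peak was the narrowest and that of m6A-ORL replicate 2 the widest. The PARP1 peak, in the gene of a poly(ADP-ribose) polymerase of DNA repair, was 151 nt wide with its centre at 75 nt in 3 lists, and 210 nt wide with its centre at 104 nt in m6A-ORL replicate 2. PARP1 percentiles were 11.2, 11.3, 5.11 and 16.5.

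HMGN2, a nucleosome-binding protein, is the G start printed above. HMGN2 centres lay at 134, 119, 90 and 134 nt with percentiles of 14.9, 20.4, 7.80 and 0.783. The peak of CNIH3, a partner of glutamate receptors, began 20 nt inside the gene in all 4 lists, with centres at 125, 140, 125 and 125 nt. HNRNPM, an RNA-binding protein of splicing, ranked at 5.56, 6.92 and 1.99 in both MeRIP lists and m6A-ORL replicate 2 but at 48.0 in m6A-ORL replicate 1. EIF4A3, the helicase of the exon junction complex, had the same pattern at 15.8, 12.7, 71.2 and 4.67. ENO1, a glycolytic enolase, ranked at 41.2, 34.7 and 36.4 in those 3 lists and at 0.876 in m6A-ORL replicate 1. So a high rank in one m6A-ORL list did not carry over to the other for these 3 genes.

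The other named genes with a 5' end peak in all 4 lists were HNRNPAB, CYCS (cytochrome c), CST3 (cystatin C), EIF3J (an initiation factor subunit), OAZ2 (an ornithine decarboxylase antizyme), FABP5, GAL (galanin), YARS1 (tyrosyl-tRNA synthetase), FKBP3, GTF2I, CTSD (cathepsin D), FASTK, RNASEH2C (a subunit of ribonuclease H2), PSMD3 (a proteasome subunit), PPP2R1B and HLA-C. Over the 24 named genes the centre lay between 3 and 254 nt (median 82 nt) in MeRIP replicate 1, 3 and 269 nt (median 89 nt) in MeRIP replicate 2, 1 and 125 nt (median 49 nt) in m6A-ORL replicate 1, and 5 and 299 nt (median 129 nt) in m6A-ORL replicate 2. PSMD3 was the farthest in 3 lists, at 254, 269 and 299 nt, and lay at 60 nt in m6A-ORL replicate 1. Median percentiles were 34.9 and 34.1 in MeRIP and 12.8 and 7.91 in m6A-ORL, a description, since genes were named by their mean rank. In CST3 the peak had a block that began at -518, -518, -518 and -458 nt relative to the annotated start. The GTF2I peak began at -6252 nt in both MeRIP lists, and that of CTSD at -646 nt in m6A-ORL replicate 1. For such peaks the annotated start may not be the start of the transcript. HMGN2, ENO1, FABP5, CYCS, YBX1, GTF2I and HLA-C have close paralogs or processed copies, so their peaks may hold reads of a copy, and the treatment of such reads is not given in the sources.

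The remaining 19 genes of the 43 included NDUFB8, PYGL, RBM14, TSPYL1, KDELR2, CACUL1, DEGS1, EWSR1, DGCR2, HOMER1, PRMT5, NUFIP2, HARS1, ANKRD52, NAA10, AP2B1, PPP1CA and CCN1. PYGL, the liver glycogen phosphorylase, had its only peak at the start in each list, with centres at 75, 75, 75 and 104 nt. PRMT5, an arginine methyltransferase, also had 1 peak per list, at 42, 42, 42 and 72 nt. The DEGS1 peak began at -7335, -7335, -7365 and -7305 nt relative to the annotated start. That of PPP1CA began at -5265 nt in both MeRIP lists and at -5235 nt in m6A-ORL replicate 1. For these genes too, the annotated start may not be the start of the transcript.

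**Figure D4:**
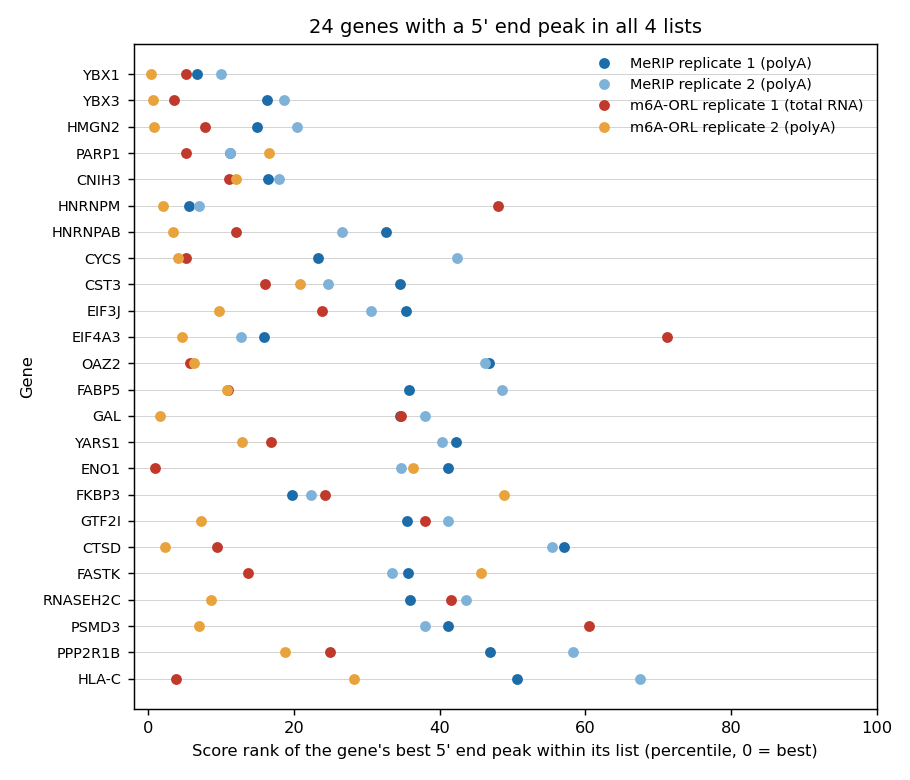
Score percentile (x axis, 0 = best in its list) of the best 5' end peak of the 24 named genes with such a peak in all 4 lists, 1 point per library, ordered by mean rank from YBX1 to HLA-C. YBX1 lies at or below 10.0 in all libraries, and HNRNPM and EIF4A3 have their worst rank in m6A-ORL replicate 1, at 48.0 and 71.2.

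Of the 187 genes with a 5' end peak in both MeRIP lists and no m6A-ORL peak, ABHD17A, a depalmitoylating enzyme, ranked best. ABHD17A had 6 peaks in each MeRIP list, with the 5' end centre at 69 and 83 nt and percentiles of 6.97 and 7.12. TFPT, a subunit of the INO80 chromatin remodelling complex, followed with centres at 159 and 174 nt and percentiles of 10.6 and 9.54. SEC63, which acts in protein import into the endoplasmic reticulum, had its only peak at the start, at 135 nt and 271 nt wide in both lists. PGBD3, CEACAM19, FAM72B, HAS3 (a hyaluronan synthase) and PLA2G12A complete the 8 named genes. The PGBD3 peaks began at -221 and -251 nt relative to its start and FAM72B has near-identical paralogs, so the gene behind these peaks is uncertain.

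Of the 66 genes with a 5' end peak in both m6A-ORL lists and no MeRIP peak, the 8 named were RACK1, OAZ1, LDHA, PTGES3, JPT1, BTF3, DDX39B and EIF4G2. RACK1, a scaffold protein of the small ribosomal subunit, had centres at 54 and 84 nt and percentiles of 4.26 and 0.653. LDHA, a lactate dehydrogenase subunit, had centres at 87 and 102 nt, and its percentile of 0.261 was the best of all named genes in m6A-ORL replicate 2. PTGES3, a co-chaperone of HSP90, had 1 peak per list, at 55 and 114 nt and percentiles of 4.65 and 3.92. OAZ1, an antizyme like OAZ2, had 2 peaks at the 5' end in each m6A-ORL list. LDHA and BTF3 have processed copies, with the same uncertainty as above.

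Gene groups differed in how often their listed members had the peak at the 5' end. The base for comparison is the share over all genes with a peak, 16%, 15.7%, 18.9% and 18.9%. Among nuclear-encoded respiratory chain and ATP synthase subunits, 2 of 18 and 1 of 14 listed genes had a 5' end peak in MeRIP (11.1% and 7.14%), and 23 of 37 and 11 of 24 did in m6A-ORL (62.2%, interval 44.8 to 77.5%, and 45.8%, interval 25.6 to 67.2%). The mean over libraries of the group's share minus the base was 14.2 points, 4.52 without m6A-ORL replicate 1 and 21.8 without MeRIP replicate 2. NDUFB8, a complex I subunit, had such a peak in all lists. NDUFB4, NDUFV1, ATP5F1D and ATP5MG had one in both m6A-ORL lists and no MeRIP peak anywhere. These genes were short: the median span of the group was 9936 nt, against 33167 nt over all genes with a peak. Short genes of all kinds had 5' end peaks more often, in 22.1%, 22.2%, 28.2% and 22.8% of genes with a span of 3000 to 10000 nt and in 13.1%, 13.0%, 10.8% and 13.3% of genes of 100000 nt or more.

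The proteasome and the translation factors had shares above the base in every list. For proteasome genes these were 6 of 13, 5 of 14, 10 of 20 and 9 of 16 (46.2% and 35.7% in MeRIP, 56.2% in m6A-ORL replicate 2), and the interval of MeRIP replicate 2 (12.8 to 64.9%) held the base. PSMD3 was in all lists, and PSMD2 and PSME3 in both MeRIP lists and m6A-ORL replicate 2. For translation factors they were 11 of 30, 10 of 30, 14 of 31 and 13 of 35 (36.7%, 33.3%, 45.2% and 37.1%), with EIF3J and EIF4A3 in all lists. This group was taken by the symbol prefixes EIF and EEF. It therefore also counted genes such as EEF1AKMT1, EEF1AKMT2, EIF4EBP1 and EIF4EBP2, and EIF4A3 of the exon junction complex. The median spans of the proteasome and translation factor groups were 18188 and 24204.5 nt, both below the 33167 nt of all genes with a peak.

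Splicing factors stood at 9 of 34 and 10 of 30 in MeRIP (26.5% and 33.3%), at 23 of 40 (57.5%) in m6A-ORL replicate 1 and at 12 of 38 (31.6%) in m6A-ORL replicate 2. HNRNPK, SNRPB and SRSF3 had the peak in both m6A-ORL lists alone. Aminoacyl-tRNA synthetases, which charge tRNAs, had it in 3 of 18 genes in each MeRIP list, and in 10 of 21 and 6 of 17 genes in m6A-ORL (47.6% and 35.3%), with HARS1 and YARS1 in all lists. Mitochondrial ribosomal proteins had it in 4 of 29, 3 of 28, 16 of 34 and 6 of 16 genes, and MRPL20 was in both m6A-ORL lists. For cytosolic ribosomal proteins the counts were 2 of 13, 1 of 12, 13 of 38 and 7 of 39, so that m6A-ORL replicate 1 alone was above the base, at 34.2% (interval 19.6 to 51.4%). This group's median span was 5678 nt, and all genes of 3000 to 10000 nt stood at 28.2% in that library, inside the interval. RPL38 was in both m6A-ORL lists and RPL7 in both MeRIP lists. In these 4 groups, m6A-ORL replicate 1 had the highest share. In m6A-ORL replicate 2 the interval of each of them held the base. For splicing factors it was 17.5 to 48.7%, for the synthetases 14.2 to 61.7%, and for mitochondrial ribosomal proteins 15.2 to 64.6%. In MeRIP, only splicing factors in replicate 2 had an interval above the base (17.3 to 52.8%). Median spans were 14187 nt for splicing factors, 10727 nt for mitochondrial ribosomal proteins and 27396 nt for the synthetases. These too were below that of all genes with a peak.

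ZNF genes, mostly zinc finger transcription factors, had few 5' end peaks although many of them were listed. The counts were 25 of 313, 32 of 310, 10 of 202 and 5 of 73 (7.99%, 10.3%, 4.95% and 6.85%), each below the base, with a median span of 22799 nt. Ubiquitin ligase adaptors had 7 of 66, 8 of 69, 6 of 52 and 3 of 23 (10.6%, 11.6%, 11.5% and 13.0%). Chromatin regulators stood at 12 of 58, 12 of 57, 5 of 43 and 12 of 45 (20.7%, 21.1%, 11.6% and 26.7%), and BRD2, CHD7 and KMT2E had the peak in both MeRIP lists alone.

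**Figure D5:**
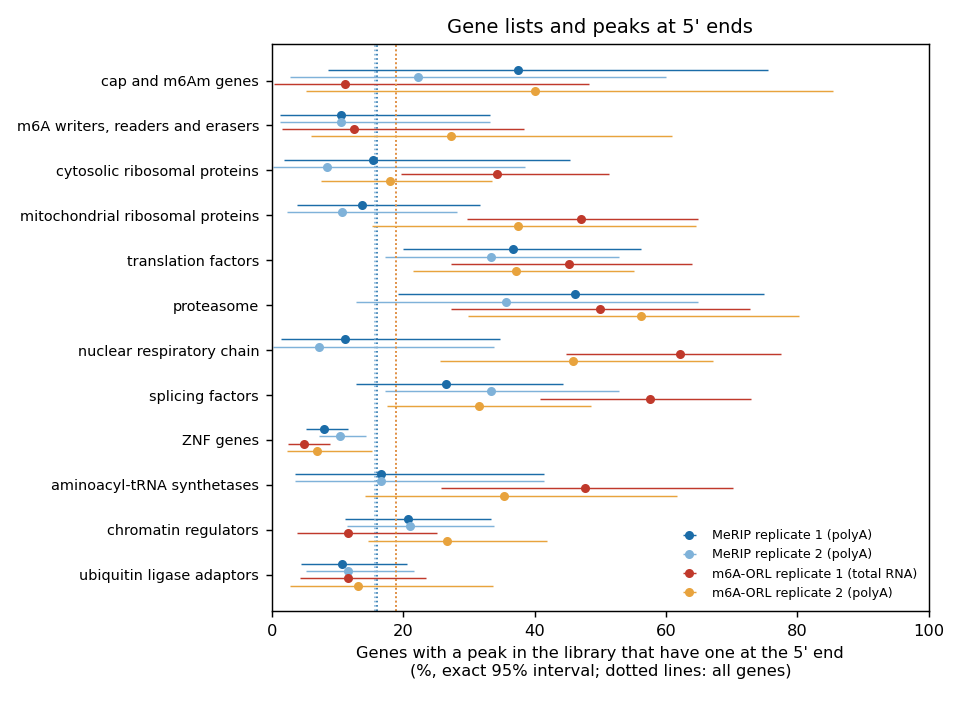
Share of the listed genes of each group with a peak at the 5' end (x axis, %), 1 point per library with its exact 95% binomial interval over genes, and dotted lines at the share over all genes with a peak. Nuclear respiratory chain genes lie at 11.1% and 7.14% in MeRIP and at 62.2% and 45.8% in m6A-ORL, and ZNF genes lie below the dotted line of their library in all 4.

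Among the genes of the cap and of m6Am, PCIF1, the writer of m6Am, had a 5' end peak of its own in both MeRIP lists, with centres at 120 and 90 nt, a width of 120 nt in each and percentiles of 67.8 and 91.0. PCIF1 had 1 peak elsewhere in m6A-ORL replicate 1 and none in m6A-ORL replicate 2, and its annotated start is G. FTO had 1, 1, 2 and 0 peaks, none at the 5' end. The list as a whole had 3 of 8, 2 of 9, 1 of 9 and 2 of 5 listed genes with a 5' end peak, which besides PCIF1 were the cap-binding genes EIF4E and EIF4E2 and their partners EIF4G1 and EIF4A1. EIF4E2 had the peak in both MeRIP lists and m6A-ORL replicate 2. With so few genes, the intervals of this list held the base in every library.

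Among 19 writers, readers and erasers of m6A, 2 of 19, 2 of 19, 2 of 16 and 3 of 11 listed genes had a 5' end peak. YTHDC1, the nuclear reader, had it in MeRIP replicate 1 and both m6A-ORL lists, and IGF2BP2, a reader that stabilises mRNA, in both MeRIP lists. WTAP and ZC3H13 of the writer complex, RBM15B, which brings that complex to its targets, and the eraser ALKBH5 each had it in 1 list. The catalytic writer METTL3 and its partner METTL14 had none.

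Other features shared these positions. Of the 4116 peaks, 364 also lay inside a lncRNA gene, 12 inside a pseudogene, 11 inside a miRNA gene and 2 inside a snRNA gene, and none lay inside a snoRNA or tRNA gene. The gene's strand came from its peaks rather than from the annotation for 688 of the 4116. Counting any annotated start of a gene, not only the outermost, raised the shares to 8.94%, 8.90%, 13.4% and 13.2%.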

How the data were processed

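Each of the 4 captured libraries has 1 deposited peak list with position, strand, blocks, an Ensembl ID and a score. Judged by its values (0 to 0.0081), the deposited score is a p-value or a q-value. Caller, input, threshold and kind of score: not given in the sources used here. The submitters' processing notes name the tools HOMER, STAR and Trim Galore and the build hg38, with no step or version. Duplicate lines were removed (4, 3, 2 and 1).

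No Ensembl ID matched the RefSeq table (GRCh38.p14), so genes were assigned by position, each peak to the gene with the nearest 5' end. Strand came from the RefSeq promoter table for 15842 of 20037 coding genes and from the peaks for 1591 (at least 90% on 1 strand, which matched the table for 96.8% of 7214 genes); 2604 genes without strand, 288 of them with peaks, were left out. The span minimum left 18098 genes, and 12412 had a start sequence. No exon annotation was used.

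Intervals are exact (Clopper-Pearson) 95% binomial intervals and cover counting error only. Methods were compared by exact permutation over libraries and 5' end with other peaks by exact sign flips. The members and lists were chosen with earlier results of these data known. Gene groups other than those of the cap, of m6A and of cell type markers were taken by symbol pattern. Named genes were the 24 with the lowest mean rank among those with a 5' end peak in all lists, the 8 lowest of each method alone, PCIF1 and FTO, and members of short counts; examples in longer lists were chosen after their values were seen. Windows, score filters, overlap rules, gene sets and leaving out each library were tried as alternatives. The code (Python 3.11.15, NumPy 2.4.6, pandas 2.3.3, SciPy 1.17.1, matplotlib 3.10.9) was tested on simulated data. Some items withheld for evaluation are not reported here.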

Additional observations from a re-analysis of the deposited data

Results flagged for a closer look

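In overlap with the same-method replicate, 5' end peaks minus other peaks came to -6.18 and -7.89 percentage points in MeRIP replicates 1 and 2, and to 7.23 and 9.08 points in m6A-ORL replicates 1 and 2. Both libraries of 1 method thus moved one way and both of the other the opposite way. Within a method the values count largely the same overlaps from either side, so their like signs are not independent. In median score rank, 5' end peaks minus other peaks came to 13.3 and 12.3 percentiles in MeRIP, where a higher percentile is a weaker score, and to -3.70 and -7.75 percentiles in m6A-ORL. The difference between the methods was not tested for either measure.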

How the results depend on the processing

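Over 27 results and 255 alternative values, 14 changed sign, 17 moved and 224 did neither. For a value with a permutation test, only its sign was judged, not its size, and sizes varied widely: the difference in the share of 5' end peaks ran from 0.38 to 7.11 points, that in rank from 0.277 to 7.28 percentiles and that in width from -19.3 to -68.0 nt. The alternatives with strand from the promoter table only and with any RefSeq start of the gene, and the results on A starts in all lists and on genes with 5' end peaks only, were added after the data were seen. The cause of each change was not tested.

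Genes with a 5' end peak in both MeRIP lists, both m6A-ORL lists and all 4 numbered 518, 115 and 28 with a window of 150 nt, 319, 91 and 19 in the better-scored 50% of each list, and 1463, 1482 and 372 when 1 list per method sufficed. With a window of 500 nt, 72 genes were in all 4. With 1 library left out, its method was counted by the single list that remained, and all lists meant the remaining ones. Such counts are therefore not of the same kind as those above. Leaving out 1 library at a time gave 833 to 1169 genes for MeRIP, 183 to 974 for m6A-ORL and 48 to 166 for both methods. It gave -21.5 to 0.475 points for overlap by the other method, -7.03 to 8.16 points for overlap by the same method, -45.5 to 20.5 nt for the median distance of m6A-ORL minus MeRIP, -2.96 to 4.61 points for cytosolic ribosomal proteins and 55.8 to 80.0% for A starts in all lists. The negative values for same-method overlap came without either m6A-ORL library, the values of 0.475 points, 20.5 nt, -2.96 points and 55.8% without m6A-ORL replicate 1.

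For the gene lists, the mean over libraries of the list's share minus that of all genes changed as follows. The m6A writers, readers and erasers went from -2.15 to 5.71 points with 500 nt and to 0.569 with strand from the table. Chromatin regulators went from 2.65 to -0.110 with 500 nt. In the better-scored 50%, cap and m6Am genes went from 10.4 to -1.82, cytosolic ribosomal proteins from 1.61 to -0.0808 and ubiquitin ligase adaptors from -5.66 to -0.0929. Cytosolic ribosomal proteins stood at -1.87 with strand from the table and at -2.09 with any start. Overlap by the same method went from 0.561 to -0.0852 and -0.263 points under these settings.

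The labels do not say that replicate numbers pair libraries across the methods. With replicate block, the share of peaks at 5' ends differed by 3.88 points (exact sign-flip permutation over 2 pairs, p = 0.5, the smallest possible), and without the block by the same value. No alternative can bring a p below 0.33 between methods or 0.13 within libraries, so p-values here say nothing of stability.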
